A study of Mus musculus with 12 samples.

Results

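The genes described here are mainly those of the axoneme of motile cilia, the beating hairs that ependymal cells carry on the walls of brain ventricles. They were chosen from the deposited gene table by symbol, as protein-coding genes of the axonemal dynein chains (Dnah and Dnai), the cilia and flagella associated proteins (Cfap), the radial spoke proteins (Rsph), the dynein regulatory complex (Drc) and the tektins (Tekt1 to Tekt5), together with the adenylate kinase Ak7 and the transcription factor Foxj1. This gave 86 genes of the 78298 in the table, of which 21748 are protein-coding. All 86 are called axoneme genes below, although Foxj1 and the dynein assembly factors Cfap298 and Cfap300 are not parts of the axoneme itself. Another 15 genes, Cfap36, Cfap97, Cfap410 and Cfap418 among them, were chosen by symbol alone and given no place in the axoneme here. The study measured poly(A) RNA of the whole hippocampus in male C57BL/6 mice, which were 6 to 8 weeks old when bought, in 3 groups of 4 libraries. Control mice were not stressed and were given saline. Model mice went through 28 days of chronic unpredictable mild stress, a series of changing mild stressors used as a model of depression, and were given saline. Treatment mice went through the same 28 days of stress and were given poricoic acid A, a triterpenoid from the fungus Poria cocos, at 20 mg/kg by gavage each day for 14 days, starting midway through the stress. The comparisons address what the stress does to these transcripts, and what the compound does to them in stressed mice.

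A motile cilium is built on outer doublet microtubules around a central pair. Outer and inner dynein arms on the doublets generate the beat, the nexin-dynein regulatory complex and the radial spokes coordinate the arms, and the central apparatus signals to the spokes. Foxj1 is the transcription factor that switches on this gene programme in ependyma and other multiciliated cells, together with factors of the RFX family, which bind X-box motifs. Neurons and some glia of the hippocampus carry a single immotile primary cilium. It lacks dynein arms, spokes and the central pair but shares the intraflagellar transport machinery.

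Because RFX factors are known regulators of ciliary genes, promoter windows of 300 bases (250 before to 50 after the start of each transcript, RefSeq, GRCm38.p6) were read for the 55 of the 86 genes that have an entry. Foxj1 was not among them. The motif GTTGCCA, a part of the X-box, was searched together with its reverse complement TGGCAAC, and whole X-boxes were not searched. It was present in 13 of 62 windows (21.0%), belonging to 12 genes, against 4.38% of all 32851 mouse promoter windows of the same length. The forkhead core TGTTTAC, searched on both strands, was present in 5 windows (8.06%), against 3.65% of all windows. Only 1 gene, Cfap20, had both, and matches to each motif were counted without regard to the other. The median GC content was 55.8% in the windows of these genes and 52.7% in all windows. Stretches around the GTTGCCA motif are shown for the dynein tether gene Cfap44, the central apparatus gene Cfap74, the nexin-dynein gene Drc1, the tektin Tekt1 and the microtubule inner protein Cfap161, to let the different roles be compared. They end at or before the transcript start, read 5′ to 3′ on the strand of the gene, and carry the motif in capitals. The stretches lie at chr16:44394749-44394798 (plus strand), chr4:155409173-155409239 (plus), chr5:30281351-30281392 (plus), chr11:72361883-72361927 (minus) and chr7:83794863-83794929 (minus).
Cfap44: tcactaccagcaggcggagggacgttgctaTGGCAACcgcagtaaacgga
Cfap74: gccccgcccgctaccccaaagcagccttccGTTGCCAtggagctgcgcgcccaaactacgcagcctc
Drc1: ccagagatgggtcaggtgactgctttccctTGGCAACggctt
Tekt1: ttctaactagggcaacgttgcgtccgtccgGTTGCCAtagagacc
Cfap161: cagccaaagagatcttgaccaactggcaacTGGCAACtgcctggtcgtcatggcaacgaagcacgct
The Cfap161 promoter held 3 copies of the motif before its start, of which the capitals mark 1. A match is a description of the letters and not a binding site.

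Libraries held 17083260 to 27479083 estimated counts, and these genes took 0.0530% to 0.0717% of them. Transcripts of 84 of the genes were counted in at least 1 library, while Cfap107 and Cfap97d1 were at 0 in all 12. Another 4, Rsph14, Cfap99, Tekt3 and Rsph6a, were too low for the count filter, which left 80 genes of the 18600 tested. Each of the 14 genes of an ependymal marker list was detected, with means from 0.564 to 12.0 FPKM (fragments scaled by transcript length and library total). That list was not kept free of cilia genes, so their detection is not a separate check on the cell type. The RNA is from tissue, so fewer ependymal cells and less RNA per cell cannot be told apart. The labels give 4 mice per group for sequencing but do not tie a library to an animal, so p-values measure the spread between these libraries.

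On the length-scaled FPKM scale, most of these genes were low. Their median over 12 libraries was 1.57 FPKM and 55 of 86 were above 1 FPKM. The 5 outer arm heavy chains, the motor proteins of the outer row, had mean levels from 0.143 to 2.82 FPKM, and Dnah9 had the highest. The 9 inner arm heavy chains had mean levels from 0.162 to 1.97 FPKM. The highest was Dnah7a, which had only 378 counts over all libraries, while its copy Dnah7b had 2146 counts at 0.794 FPKM. The rank of Dnah7a by FPKM is therefore uncertain. Foxj1 had a mean level of 6.14 FPKM, above every dynein chain. Among the other groups the highest mean levels were those of Dnai4 (an inner arm intermediate chain, 4.23 FPKM), Cfap44 (part of the tether of an inner arm, 3.96 FPKM), Drc3 (nexin-dynein regulatory complex, 5.15 FPKM), Cfap69 (central apparatus, 5.70 FPKM), Tekt5 (a tektin, 4.26 FPKM) and Cfap298 (a factor for assembling dynein arms, 17.7 FPKM).

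In all 10 genes had a mean level over 8 FPKM, a limit set after the values were seen. They were Cfap36 (54.9 FPKM), Cfap20 (28.8), Cfap68 (23.1), Cfap418 (18.2), Cfap298 (17.7), Rsph3a (16.9), Cfap410 (15.9), Rsph3b (13.4), Rsph9 (13.3) and Cfap97 (8.66), and the next was Cfap144 at 6.52 FPKM. Cfap36 binds the small GTPase Arl3, Cfap410 is found at the base of cilia and Cfap418 is known from photoreceptors, so several of them are not particular to motile cilia. Rsph3a and Rsph3b are near-identical copies between which the authors' estimate had to divide reads. Their values are thus uncertain. In addition, Rsph3a ranged from 9.32 to 25.5 FPKM over the libraries, while its CPM (counts scaled by library size only) ranged only from 17.4 to 22.5. The source of this wider FPKM range was not tested.

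**Figure D1:**
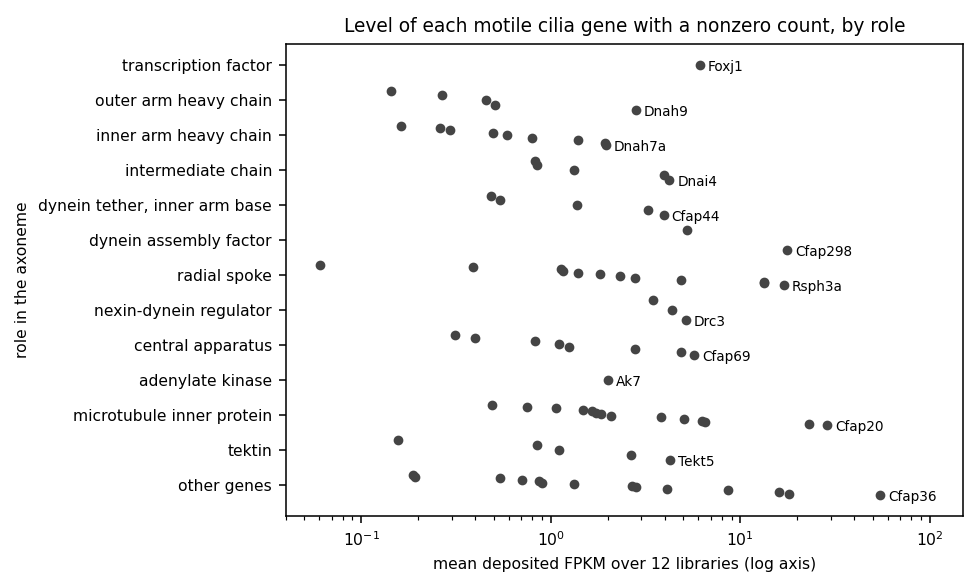
Mean deposited FPKM of each motile cilia gene over the 12 libraries (log axis), in rows by role, with the highest gene of each row named. Dynein heavy chains lie between 0.143 and 2.82 FPKM, and Cfap36 at 54.9 FPKM is the highest of all.

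The 10 more abundant genes also varied less. Their median biological coefficient of variation, the relative spread between libraries of a group beyond counting error, was 7.53%, against 21.5% for the other 70 genes tested. Over all 80 it was 20.4%, against 10.4% for all 18600 genes. Restricting both to genes with a mean count of at least 50 left 15.4% for 53 of these genes and 8.51% for 13863 genes. The gap was thus also present among the better counted genes.

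Cfap36 (ENSMUSG00000020462, chr11:29171532-29197409 in GRCm39) is the most abundant of them. It was at 72.0, 69.1, 81.3 and 77.8 CPM in Control, 76.8, 82.9, 74.8 and 79.1 CPM in Model, and 70.5, 65.2, 73.0 and 75.7 CPM in Treatment. The groups overlap. Its log2 fold change was 0.06 ± 0.07 for Model against Control, -0.14 ± 0.07 for Treatment against Model (edgeR adjusted p = 0.267) and -0.08 ± 0.07 for Treatment against Control. It was among the genes lower in Treatment than in Model at an unadjusted p under 0.05.

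Foxj1 (ENSMUSG00000034227, chr11:116221530-116226225) varied more. It was at 14.5, 17.6, 17.5 and 12.4 CPM in Control, 14.8, 18.6, 13.2 and 14.1 CPM in Model, and 8.00, 15.4, 17.1 and 10.6 CPM in Treatment. Treatment replicate 1 was the lowest library and Treatment replicate 4 the next, but replicates 2 and 3 lay among the Control values and the groups overlap. Its log2 fold change was -0.03 ± 0.19 (SE) for Model against Control, -0.25 ± 0.19 for Treatment against Model and -0.28 ± 0.19 for Treatment against Control, with edgeR adjusted p (Benjamini-Hochberg, all genes) of 0.959, 0.540 and 0.558 and n = 4 per group.

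The axoneme genes differed from library to library within each group. With each gene set to its own mean over the libraries, the median of the 80 on the log2 CPM scale was 0.12, 0.34, 0.20 and 0.07 in Control replicates 1 to 4, then -0.03, 0.23, -0.12 and -0.25 in Model, and -0.32, 0.16, -0.10 and -0.17 in Treatment. Model replicate 2 and Treatment replicate 2 thus lay among the Control libraries, and all 4 Control libraries were above 0. Treatment replicate 1 was the lowest of the 12 libraries for 33 of the 80 genes (41.2%), where it was the lowest for 12.2% of all genes tested. Control replicate 2 was the highest for 21 genes (26.2%, against 6.02% of all genes) and Model replicate 2 for 19 (23.8%, against 7.83%).

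Ependymal markers whose symbols lie outside these families had library medians in a like order. The 14 markers reached 0.50 in Control replicate 3 and 0.52 in Model replicate 2, and their lowest value was -0.82 in Treatment replicate 1. Ccdc153, one of the 14 markers, was at 6.31, 6.08, 5.65 and 5.68 CPM in Control, 4.14, 7.05, 3.59 and 3.43 CPM in Model, and 2.05, 4.92, 3.28 and 4.35 CPM in Treatment. The marker list was not kept free of cilia genes. Its like order, and fits that use it as a covariate, are therefore not a separate check on the axoneme genes. The part of ependymal content in the values below was not tested beyond the covariate fits given with them.

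Choroid plexus epithelium, which carries cilia too and lies next to the hippocampus in the lateral ventricle, differed between libraries by much more. Its 20 tested markers had library medians of 0.79, 1.26, 1.30 and -0.31 in Control, from -0.52 to -0.01 in Model, and of -0.91, 0.51, -0.03 and -0.93 in Treatment. Its summed level, over 21 markers with none at 0, was 832 to 2647 CPM in Control, 700 to 1009 CPM in Model and 550 to 1634 CPM in Treatment. In contrast, 37 genes of intraflagellar transport and the BBSome, which all cilia use, had library medians between -0.10 and 0.08, and 10 genes of the neuronal primary cilium between -0.05 and 0.07.

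**Figure D2:**
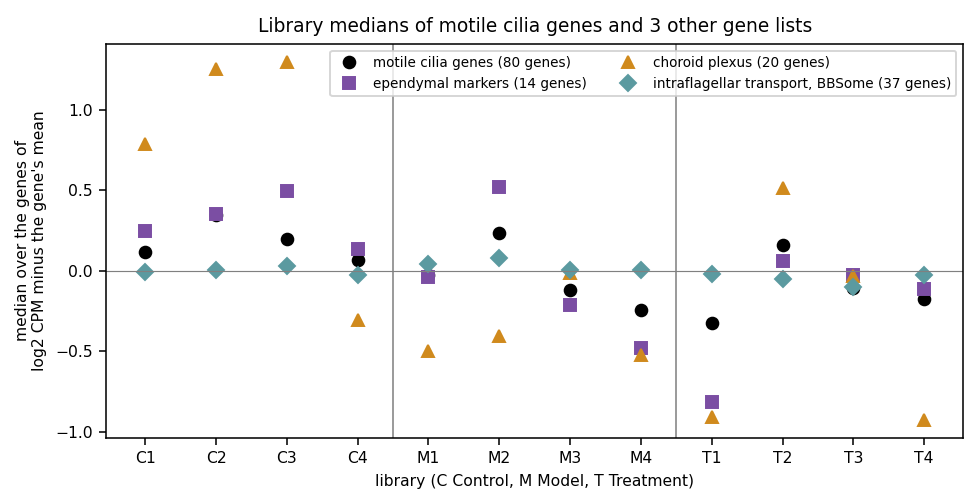
Median of log2 CPM minus each gene's mean, by library, for the motile cilia genes (80), ependymal markers (14), choroid plexus markers (20) and intraflagellar transport and BBSome genes (37). Motile cilia genes and ependymal markers are lowest in Treatment replicate 1 (-0.32 and -0.82) and high in Model replicate 2 (0.23 and 0.52), while the transport genes stay between -0.10 and 0.08.

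**Figure D3:**
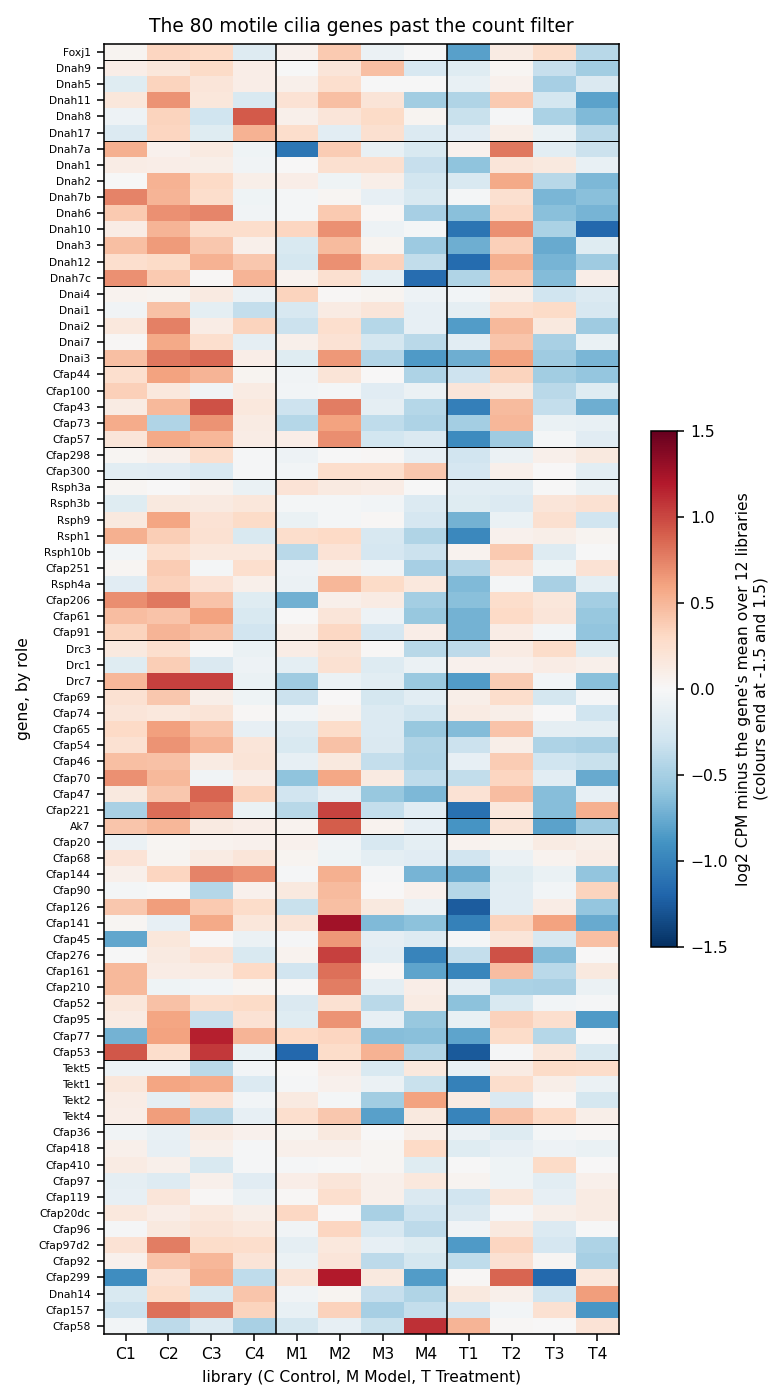
Log2 CPM minus the mean over 12 libraries for each of the 80 tested motile cilia genes (rows, grouped by role in the order of the levels plot) in each library (columns). Treatment replicate 1 is the lowest library for 33 genes, Control replicate 2 the highest for 21 and Model replicate 2 for 19.

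Between Model and Control, no axoneme gene passed the test, although most had lower fitted levels in stressed mice. Of the 80 genes 63 had a negative log2 fold change and 17 a positive one, with a median of -0.23, where 52.7% of all genes were negative and the median of all genes was -0.01. By edgeR's quasi-likelihood test with Benjamini-Hochberg adjustment over 18600 genes, 0 of the 80 were called at an adjusted p under 0.05, against 0.79% of all genes. At an unadjusted p under 0.05 there were 13 lower (7.85% of all genes) and 2 higher (7.72% of all genes). DESeq2 called 2, Drc7 lower and Cfap97 higher, where it called 1.42% of all genes lower and 2.3% higher, and limma-voom called 0. Without the count filter 6 were called lower (0.994% of all genes), and without Treatment replicates 2 and 3 together 1, Drc7 (0.826%). The count of 13 was 4 without Model replicate 4, 6 without Control replicate 2 and 24 without Model replicate 2. Of all genes 1239 of 18909, 1122 of 18870 and 1155 of 19126 were lower in those fits. With choroid plexus level as a covariate the median was 0.04 and 1 gene was lower at an unadjusted p under 0.05, where 922 of all genes were, against 1460 without it. With ependymal marker level, a fit added after the data were seen, the median was -0.03 and 3 were lower, where 1143 of all genes were.

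Drc7, a subunit of the nexin-dynein regulatory complex that ties neighbouring doublets, had the smallest p of these genes (ENSMUSG00000031786, chr8:95781731-95804769). Like the other genes named below outside the highest of each role, it was chosen after its values were seen. It was at 10.4, 14.9, 15.0 and 6.83 CPM in Control, 5.03, 6.89, 6.52 and 4.93 CPM in Model, and 4.05, 9.53, 7.07 and 4.70 CPM in Treatment. Control replicates 1 to 3 lay above every Model library, and Control replicate 4 lay just under the highest Model library, so the groups overlap. The log2 fold change of Model against Control was -1.01 ± 0.26 (SE), with an edgeR adjusted p of 0.0802. Without Control replicate 4 it was -1.20 with an adjusted p of 0.0348, and it was also called with DESeq2 (adjusted p = 0.00576). Transthyretin (Ttr), made by choroid plexus, had the same order in Control: 1513, 1853, 2015 and 599.5 CPM, and Model libraries held 497 to 725 CPM. With choroid plexus level as a covariate the Drc7 log2 fold change was -0.10 ± 0.15 for Model against Control (edgeR adjusted p = 0.896) and -0.07 ± 0.15 for Treatment against Control (0.942). With ependymal marker level it was -0.56 ± 0.23 and -0.32 ± 0.25 (0.365 and 0.757). Choroid plexus level itself differed between these groups, so that group and covariate are partly shared in this fit.

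The other 2 nexin-dynein genes did not share that size of difference, with log2 fold changes of -0.10 ± 0.16 for Drc3 and -0.04 for Drc1.

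All 8 central apparatus genes were negative in Model against Control, with a median log2 fold change of -0.42, though none passed the edgeR test. Cfap47 was at 1.89, 2.28, 3.20 and 2.17 CPM in Control and 1.38, 1.54, 1.12 and 1.03 CPM in Model, so the groups do not overlap. Its log2 fold change was -0.91 ± 0.26, with an edgeR adjusted p of 0.109. With the choroid plexus covariate it was -0.72, and with the ependymal covariate -0.78. Cfap54, which encodes a large scaffold of the central apparatus, was at 9.13, 12.4, 11.1 and 8.83 CPM in Control and 6.63, 10.6, 6.66 and 5.66 CPM in Model. There, Model replicate 2 lay among the Control values, and the log2 fold change was -0.50 ± 0.18 with an edgeR adjusted p of 0.199. The Cfap54 value was -0.19 with the choroid plexus covariate and -0.26 with the ependymal covariate. Cfap69, the highest of the group, was at 22.1, 25.1, 20.1 and 18.1 CPM in Control and 15.1, 19.0, 15.7 and 16.9 CPM in Model, with a log2 fold change of -0.36 ± 0.12 (edgeR adjusted p = 0.153). Control replicate 4 lay below Model replicate 2. With the same covariates the Cfap69 value was -0.20 and -0.32.

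The 9 inner arm heavy chains were all negative in Model against Control, from -0.63 to -0.009, with a median of -0.38. The 5 outer arm heavy chains were also all negative but with a median of -0.11. The 3 copies Dnah7a, Dnah7b and Dnah7c share sequence, so their summed level is the safer measure. They are not 3 separate results in the counts of inner arm heavy chains in any comparison. The sum was 18.4, 15.2, 12.9 and 11.5 CPM in Control, 10.3, 12.1, 10.2 and 8.75 CPM in Model, and 10.6, 14.3, 7.27 and 8.14 CPM in Treatment. Control replicates 1 to 3 were above every Model library, and Control replicate 4 was not. Of the 5 intermediate chains 4 were negative, with Dnai4 at 0.05 ± 0.10 as the exception, and all 5 genes of the dynein tether and inner arm attachment were negative, among them Cfap44 at -0.43 ± 0.19 (edgeR adjusted p = 0.277).

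Among the radial spoke genes 8 of 10 were negative in Model against Control. The spoke head gene Rsph9 was at 9.47, 12.9, 9.96 and 10.4 CPM in Control and 7.96, 8.37, 8.67 and 7.16 CPM in Model, and the groups do not overlap (log2 fold change -0.42 ± 0.16, edgeR adjusted p = 0.221, and -0.17 with the choroid plexus covariate). Groups did not overlap for 4 genes in all, each lower in Model (Cfap47, Rsph9, the microtubule inner protein gene Cfap68 and Cfap97d2), where 5.46% of all genes were apart in that direction, and for 0 genes higher in Model, where 5.95% of all genes were. The 4 of 80 are near the share of all genes.

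A few of these genes had positive values. Cfap97 was at 32.2, 30.9, 37.5 and 31.5 CPM in Control and 38.2, 40.4, 37.4 and 39.6 CPM in Model, with a log2 fold change of 0.24 ± 0.07 and an edgeR adjusted p of 0.129. Control replicate 3 lay within the Model range. Cfap300, a cytoplasmic factor for assembling dynein arms, was at 6.17, 6.12, 5.82 and 6.79 CPM in Control and 6.67, 8.26, 8.29 and 9.10 CPM in Model, with a log2 fold change of 0.37 ± 0.12 (edgeR adjusted p = 0.143). The groups overlap in Control replicate 4. The tektins, filament proteins inside the doublet wall, were split, with 2 of 4 tested negative and Tekt5 at 0.15 ± 0.13.

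**Figure D4:**
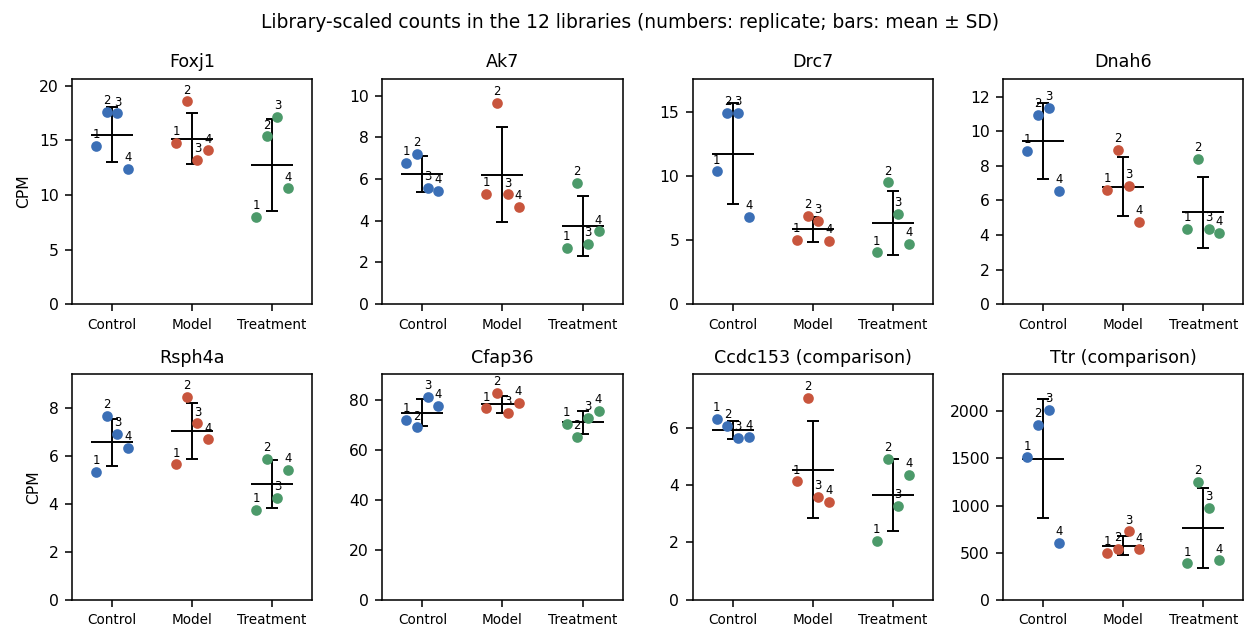
CPM in the 12 libraries for 6 motile cilia genes and for Ccdc153 and Ttr. Ccdc153 is from the ependymal marker list, which was not kept free of cilia genes, and Ttr is from the choroid plexus list. Points are libraries with their replicate numbers, and bars are group means ± SD (n = 4); Drc7 and Ttr are both high in Control replicates 1 to 3 (10.4 to 15.0 and 1513 to 2015 CPM) and lower in Control replicate 4, while Cfap36 lies between 65.2 and 82.9 CPM in all libraries.

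Between Treatment and Model, which share the Model libraries with the comparison above, the axoneme genes again had no call. Of the 80 genes 52 had a negative log2 fold change, with a median of -0.10 against 0.00 for all genes, of which 49.6% were negative. EdgeR called 0 of the 80 with Benjamini-Hochberg adjustment, against 1.88% of all genes, and at an unadjusted p under 0.05 there were 9 lower (8.69% of all genes) and 1 higher (9.78%). DESeq2 called 3, all lower in Treatment (Rsph4a, Ak7 and Cfap418, where 2.93% of all genes were called lower and 2.98% higher), and limma-voom 0. Without the count filter 3 were called lower (1.12% of all genes), and without Treatment replicates 2 and 3 together 1, Dnah10 (0.0714%). The median turned to 0.03 without Model replicate 2, to 0.02 without Treatment replicate 1 and to 0.03 with ependymal marker level as a covariate. With choroid plexus level as a covariate it stayed negative at -0.13, with 54 of 80 genes negative. In that fit 12 were lower at an unadjusted p under 0.05, where 1621 of all genes were, against 1617 without the covariate. The count of 9 lower was 5 without Model replicate 2 and 15 without Treatment replicate 2. Of all genes 1255 of 19126 and 1370 of 19035 were lower in those fits. The median was -0.31 without Treatment replicates 2 and 3, the libraries whose library numbers (1631 and 1636) stand apart from those of the other 10.

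Ak7 supplies adenylate kinase activity to the axoneme (ENSMUSG00000041323, chr12:105672235-105748706). It was at 6.80, 7.20, 5.59 and 5.44 CPM in Control, 5.29, 9.64, 5.27 and 4.68 CPM in Model, and 2.72, 5.83, 2.88 and 3.49 CPM in Treatment. Treatment replicates 1, 3 and 4 were below every other library, and Treatment replicate 2 lay within both other groups. The log2 fold change of Treatment against Model was -0.73 ± 0.25 with an edgeR adjusted p of 0.135, and that of Model against Control was -0.02 ± 0.24. Without 1 library the Treatment against Model value ran from -1.02 to -0.45. It was -0.76 with the choroid plexus and -0.56 with the ependymal covariate.

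Rsph4a, a spoke head gene, was at 5.65, 8.48, 7.36 and 6.69 CPM in Model and 3.74, 5.88, 4.24 and 5.43 CPM in Treatment. Only Treatment replicate 2 reached into the Model range, and the log2 fold change was -0.54 ± 0.17 (edgeR adjusted p = 0.104). With the choroid plexus and ependymal covariates it was -0.55 and -0.47. Cfap418 had the smallest p of these genes in the comparison, at 35.0, 35.1, 34.1 and 41.1 CPM in Model and 29.4, 30.7, 31.6 and 31.0 CPM in Treatment. The groups do not overlap, the log2 fold change was -0.25 ± 0.07 and the edgeR adjusted p was 0.0852. With the same covariates the fold change was -0.25 and -0.26. Groups were apart for 3 genes lower in Treatment (Cfap418, Cfap97 and the heavy chain Dnah8), against 4.36% of all genes, and for 0 higher, against 5.14%.

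The outer arm heavy chains were all negative here too, 5 of 5 with a median log2 fold change of -0.35. Dnah9, the most abundant of them, was at 20.0, 20.9, 22.8 and 19.9 CPM in Control, 18.5, 21.1, 25.5 and 15.8 CPM in Model, and 16.5, 19.0, 14.6 and 13.0 CPM in Treatment. The spread within Model covered most of the other values, and Treatment lay below every Control library. Its log2 fold change was -0.36 ± 0.13 against Model (edgeR adjusted p = 0.161). Inner arm heavy chains were negative for 7 of 9, and Dnah10 among them was at 4.80, 6.23, 3.63 and 3.73 CPM in Model and 1.74, 6.18, 2.73 and 1.64 CPM in Treatment, with Treatment replicate 2 alone at the Model level. Without Treatment replicates 2 and 3 its log2 fold change was -1.44 (edgeR adjusted p = 0.0174), and with all libraries it was -0.58 ± 0.33 (edgeR adjusted p = 0.365). The central apparatus did not share this direction, with 5 of 8 genes positive and a median of 0.09.

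Cfap300 and Cfap97, which were above Control in Model, had log2 fold changes of -0.31 ± 0.12 and -0.16 ± 0.07 in Treatment against Model (edgeR adjusted p = 0.178 and 0.266). Cfap20, which seals the inner junction of the doublet, was the gene with a positive value at an unadjusted p under 0.05, with a log2 fold change of 0.16 ± 0.07 (edgeR adjusted p = 0.21).

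Treatment against Control gave the lowest values, and shares its libraries with both other comparisons. Of the 80 genes 67 had a negative log2 fold change and the median was -0.34, where 52.1% of all genes were negative and their median was -0.01. EdgeR with Benjamini-Hochberg adjustment called 0 of the 80, against 0.102% of all genes, while 24 were lower at an unadjusted p under 0.05 (6.56% of all genes) and 1, Tekt5, was higher (7.31% of all genes). DESeq2 called 4, all lower (Cfap54, Cfap126, Drc7 and Dnah6, where it called 0.634% of all genes lower and 1.73% higher), and limma-voom 0. Without the count filter 11 were called lower (0.772% of all genes), and without Treatment replicates 2 and 3 together 4 (0.224%). The count of 24 was 12 without Treatment replicate 1, 15 without Treatment replicate 4 and 16 without Control replicate 2. Of all genes 1355 of 19080, 1011 of 18887 and 1148 of 18870 were lower in those fits. With choroid plexus level as a covariate the count of 24 was 2 and the median -0.12, and with ependymal marker level they were 1 and -0.06, where 754 and 651 of all genes were lower, against 1221 without a covariate.

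Cfap54 had the smallest p (ENSMUSG00000020014, chr10:92611481-92917480). Its Treatment libraries were at 6.20, 8.26, 5.61 and 5.51 CPM, all below the lowest Control value of 8.83 CPM. The log2 fold change was -0.70 ± 0.19 and the edgeR adjusted p was 0.125. It was -0.40 with the choroid plexus and -0.33 with the ependymal covariate. Dnah6, an inner arm heavy chain, was at 8.88, 11, 11.4 and 6.54 CPM in Control, 6.63, 8.92, 6.85 and 4.76 CPM in Model, and 4.36, 8.41, 4.34 and 4.14 CPM in Treatment. Its log2 fold change against Control was -0.83 ± 0.24 (edgeR adjusted p = 0.144), with Treatment replicate 2 inside the Control range. It was -0.24 and -0.31 with the same covariates.

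Among the microtubule inner protein genes whose groups did not overlap, the largest differences were those of Cfap126 and Cfap144, which were low in count. Cfap126 was at 3.4, 3.98, 3.38 and 3.11 CPM in Control and 1.03, 2.28, 2.78 and 1.68 CPM in Treatment, with a log2 fold change of -0.84 ± 0.25 (edgeR adjusted p = 0.160). Cfap144 was at 1.89, 2.28, 3.09 and 2.94 CPM in Control and 1.03, 1.57, 1.67 and 1.16 CPM in Treatment, with a log2 fold change of -0.91 ± 0.27 (edgeR adjusted p = 0.154). With the choroid plexus covariate the values were -0.45 for Cfap126 and -0.78 for Cfap144, and with the ependymal covariate -0.38 and -0.39. Groups were apart for 7 genes lower in Treatment, against 3.24% of all genes, and for 1 higher, Cfap58, against 3.99%.

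By role, all 9 inner arm heavy chains (median log2 fold change -0.62), all 5 outer arm heavy chains (-0.41), all 5 tether and attachment genes (-0.60), all 10 tested radial spoke genes (-0.42) and all 8 central apparatus genes (-0.42) were negative in Treatment against Control, none past the test. The exceptions lay elsewhere: 4 of 14 microtubule inner protein genes, 1 of 4 tektins, 1 of 3 nexin-dynein genes, 1 of 2 assembly factors, 1 of 5 intermediate chains and 5 of 13 other genes were positive. Tekt5 was at 6.02, 6.01, 4.77 and 6.17 CPM in Control and 5.85, 6.89, 7.78 and 7.67 CPM in Treatment, with a log2 fold change of 0.29 ± 0.13 (edgeR adjusted p = 0.342). The groups overlap in Treatment replicate 1.

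**Figure D5:**
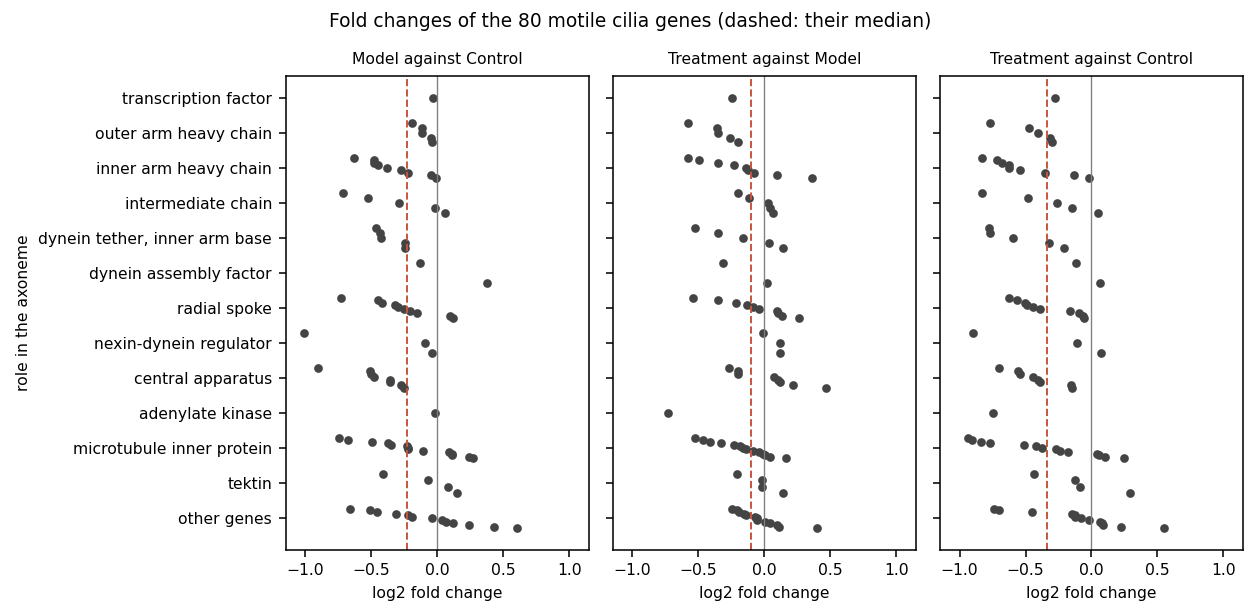
Log2 fold change of each of the 80 tested motile cilia genes in 3 comparisons that share libraries, by role; the dashed line is the median over the genes (-0.23, -0.10 and -0.34) and the grey line is 0. Central apparatus genes are all negative in Model against Control and in Treatment against Control, and outer arm heavy chains are negative in all 3; no gene passed the edgeR test.

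The abundant and the scarce axoneme genes differed in these values. For the 10 genes over 8 FPKM the medians were -0.08 in Model against Control, -0.04 in Treatment against Model and -0.09 in Treatment against Control. For the 70 others they were -0.26, -0.12 and -0.40. The difference between the sets was not tested.

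Other genes of motile cilia that the symbol rule left out, such as docking complex, dynein assembly and central apparatus genes, gave like values. Of the 44 that were tested 0 were called in any of the 3 comparisons, and their median log2 fold changes were -0.12 (33 of 44 negative), -0.05 (24 negative) and -0.27 (32 negative) in the order Model against Control, Treatment against Model and Treatment against Control. The 14 ependymal markers had medians of -0.37, -0.18 and -0.62, with 0 called. The genes that start multiciliation, upstream of Foxj1 or beside it (11 tested of 15, among them Gmnc, Trp73 and Rfx3), had medians of 0.04, -0.05 and -0.14 with 0 called. Mcidas, Deup1, Cdc20b and Foxn4, which act in forming ciliated cells, did not pass the count filter. Intraflagellar transport and BBSome genes had medians of 0.02, -0.08 and -0.05 with 0 of 37 called.

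Of the choroid plexus list, 2 of 20 genes were called lower in Model against Control (Abca4, log2 fold change -1.35 ± 0.29, and Sostdc1, -1.21 ± 0.26, edgeR adjusted p = 0.0454 and 0.0469), and the median of the list was -1.25, 0.12 and -1.04 in the 3 comparisons. In the neuronal cilium list 1 of 10 genes was called, the ciliary receptor Gpr161, lower in Treatment against Model (-0.55 ± 0.12, edgeR adjusted p = 0.0331). In the leptomeningeal fibroblast list 1 of 12 was called, Igf2, lower in Model against Control (-1.0 ± 0.18, edgeR adjusted p = 0.0212), and in the list of hippocampal neurons 1 of 10, Prox1, lower in Treatment against Model (-0.43 ± 0.10, edgeR adjusted p = 0.0331). Over all genes, edgeR called 0.79% in Model against Control and 1.88% in Treatment against Model, in either direction.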

How the data were processed

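Per the labels, poly(A) RNA of mouse hippocampus was sequenced in 12 libraries of 1 batch, 4 for each group. Per the submitters' processing notes the authors used STAR 2.7.10a and Salmon 1.10.1 with the build GRCm39, and Trim Galore 0.6.7 with cutadapt 3.4 and FastQC 0.12.1; the notes give no order or roles. The deposited estimated counts per gene were not scaled by the authors, and 28.8% of nonzero values are not whole (tolerance 1e-06). The deposited FPKM values were scaled by the authors for gene length and library total. Their ratio to the counts varied between libraries for some genes, such as Rsph3a, so FPKM was used to compare genes and CPM to compare libraries. Counts were fractional in at least 6 libraries for 20 of the 86 genes, Dnah7a, Dnah7b, Dnah7c, Rsph3a and Rsph3b included, and their values are less certain. Strand use in counting is not given in the sources used here, so overlapping and antisense genes cannot be told apart.

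Counts were rounded and fitted in R 4.3.3 with edgeR 4.0.16 (filterByExpr, TMM scaling, 1 quasi-likelihood fit to 12 libraries, 3 contrasts), with Benjamini-Hochberg adjusted p under 0.05 over 18600 genes as the threshold. Fits were tested on simulated data. CPM and log2 CPM (prior count 2) use scaled library sizes. Depth limits precision most for genes near 1 CPM. Alternatives were DESeq2 1.42.0, limma 3.58.1 (voom, and log2 FPKM with pseudocounts 0.1 and 1), RLE scaling, other filters, a replicate block, covariates and left-out libraries. The genes, their roles and all gene lists were chosen with earlier results of these data known. Named genes are the highest in FPKM of each role, Foxj1 and Ak7; others were named after their values were seen, as were those in groups that do not overlap. Promoter sequences are from RefSeq (GRCm38.p6), another build than that of the counts.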

Additional observations from a re-analysis of the deposited data

Results flagged for a closer look

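In 87 groups of 4 libraries, 1 library stood far from the other 3 in 7 cases, judged by the gap to its nearest neighbour as a share of the range of the group. Chance gives about 1 in 20 groups where groups are independent. These groups share the same 12 libraries, and some of the genes were chosen after their values were seen. The 7 cases therefore cannot be set against that rate. For Ak7, Model replicate 2 was at 9.64 CPM against 4.68 to 5.29 in the other Model libraries (gap 0.876 of the range). For Dnah6, Treatment replicate 2 was at 8.41 CPM against 4.14 to 4.36 (0.948). For Cfap418, Model replicate 4 was at 41.1 CPM against 34.1 to 35.1 (0.846), and for Cfap58 the same library was at 1.29 CPM against 0.419 to 0.496 (0.912). For Tekt5, Control replicate 3 was at 4.77 CPM against 6.01 to 6.17 (0.882). For Cfap97d2, Control replicate 2 was at 2.24 CPM against 1.5 to 1.57 (0.909) and Model replicate 2 at 1.43 CPM against 1.12 to 1.17 (0.844).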

How the results depend on the processing

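The labels tie no library to an animal, 4 libraries a group limit every test, and genes near 1 CPM can show only large differences. Of 1456 values of 61 gene results under 24 alternatives, 1356 kept their direction and side of the threshold, 40 crossed the threshold and 60 turned direction. Axoneme genes called in Model against Control, Treatment against Model and Treatment against Control numbered 0, 0 and 0 with edgeR as reported. They numbered 2, 3 and 4 with DESeq2, 6, 3 and 11 with no filter, 1, 0 and 0 with only the 8 libraries compared (1 lower, where 233 of 18236 genes were called lower), and 1, 1 and 4 with Treatment replicates 2 and 3 left out together. Without 1 library they ran from 0 to 1 in Model against Control (1 without Control replicate 4, Drc7) and were 0 in the others. With replicate numbers as a block 2, 2 and 4 genes were called (Cfap54 and Drc7; Rsph4a and Ak7; Cfap54, Drc7, Dnah6 and Cfap44), all lower, where 133, 151 and 33 of all 18600 genes were called lower, but the numbers share only a name: correlations of same-numbered libraries ran from -0.040 to 0.111, 1 of 12 above 0.1, and 4 of 12 libraries were closest to their own number. RLE scaling, limma-voom, a filter of 1 CPM in 4 libraries, both covariates and FPKM with limma gave 0 in each comparison. For the calls the cause of the differences was not tested.

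The median log2 fold change turned to 0.039 with the choroid plexus covariate in Model against Control and to 0.025 with the ependymal covariate, an alternative added after seeing the data, in Treatment against Model. In Treatment against Model it ran from -0.20 to 0.031 without 1 library. With the choroid plexus covariate Model against Control turned to 0.35 for Ak7, -0.012 for Cfap36, 0.032 for Cfap44, 0.055 for Dnah7a, 0.18 for Dnah9, 0.19 for Drc3 and 0.45 for Foxj1, and Treatment against Control to 0.0090 for Cfap69, 0.38 for Dnah7a, 0.16 for Drc3 and 0.16 for Foxj1. With the ependymal covariate Model against Control turned to 0.31 for Ak7, 0.040 for Dnah9, 0.15 for Drc3 and 0.30 for Foxj1, Treatment against Model to 0.088 for Drc3, and Treatment against Control to 0.034 for Cfap298, -0.064 for Cfap58, 0.24 for Dnah7a, 0.24 for Drc3 and 0.16 for Foxj1. On the log2 FPKM scale with pseudocounts 0.1 and 1, Model against Control turned to 0.15 and 0.12 for Dnah7a, 0.10 and 0.076 for Dnah9, and -0.21 and -0.20 for Rsph3a, Treatment against Model to 0.095 and 0.081 for Drc3, and Treatment against Control to 0.0035 and 0.0060 for Cfap69, 0.66 and 0.46 for Dnah7a, and 0.0074 and 0.0080 for Drc3. Without Treatment replicates 2 and 3 Cfap298 turned to -0.000645 in Treatment against Model. Leaving out 1 library turned Ak7 (-0.29 to 0.10), Dnah9 (-0.17 to 0.059), Dnai4 (-0.036 to 0.11), Drc3 (-0.15 to 0.024) and Foxj1 (-0.13 to 0.041) in Model against Control, Cfap298 (-0.046 to 0.094) and Drc3 (-0.13 to 0.094) in Treatment against Model, and Dnah7a (-0.32 to 0.13) in Treatment against Control. None of these values passed the threshold under either setting, and the causes were not tested.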
